A study of Mus musculus with 7 samples.

Results

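The transcription factor NRF2 (gene Nfe2l2), 3 proteins that control it (Keap1, Bach1 and Mafg) and 6 of its classic target genes (Nqo1, Hmox1, Txnrd1, Srxn1, Sqstm1 and G6pdx) were followed in the retinal pigment epithelium (RPE) of aged mice given a GSTA4 or a GFP vector. These 10 genes were chosen by symbol from a table of 21861 rows, and all 10 were present and passed the filter on low counts, as did 15075 rows in all. The groups were 3 libraries treated with AAV-GFP (Old-GFP) and 4 treated with AAV-GSTA4 (Old-GSTA4), where AAV is the adeno-associated virus that carried the gene. RPE was collected 12 weeks after treatment, and both groups share the old age, the tissue and a viral vector; an exact age, a strain, the vector's promoter and an untreated or young group are not given in the labels used here. The enzyme GSTA4 joins glutathione to the aldehydes that arise when lipids are oxidised, and the comparison asks how its delivery altered RNA levels in the aged RPE. The labels do not say that the libraries came from separate animals, so p-values measure the spread between these libraries.

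NRF2 switches on genes for detoxification, glutathione and thioredoxin recycling and NADPH supply. In unstressed cells KEAP1 holds it to a CUL3 ubiquitin ligase for destruction. Oxidants and electrophiles, among them the aldehydes that GSTA4 clears, modify KEAP1 and let NRF2 accumulate, pair with a small MAF protein and bind antioxidant response elements, where BACH1 competes for the same sites. The RPE, which lies under strong light and takes up oxidised photoreceptor membranes, relies on this response. NRF2 is governed largely through its protein, which RNA counts do not measure, whereas the targets report on its activity through their RNA.

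The antioxidant response element core, TGACNNNGC, was sought on both strands of RefSeq promoter windows (GRCm38.p6, 250 bases before to 50 after each start site). Windows were found for 9 of the 10 genes (11 windows), and Hmox1 had no window. The core was present in 5 of the 11 windows (45.5%), those of Nfe2l2, Srxn1, Txnrd1, Mafg and G6pdx, against 12.4% of all 32851 windows. It was present in 10 of 35 windows of the other NRF2 targets listed further on (28.6%) and in 4 of 33 windows of the other NRF2 regulators (12.1%). The letters were not in the windows of Nqo1, Keap1, Sqstm1 and Bach1. The stretches with a core are printed along the gene's strand, because they show which genes of the group, NRF2 itself and its partner Mafg included, carry the letters that NRF2 and BACH1 recognise near their start; capitals mark the core, which reads on the opposite strand in all but Nfe2l2. A match is a description of the sequence and not a measured binding site. The core of G6pdx lies before its RefSeq start but inside an exon annotated for the gene in GENCODE M21. The core of Srxn1 also lies in an annotated exon, and the other cores do not.
Nfe2l2 (chr2:75704865-75704913, minus strand, 240 bases before the start): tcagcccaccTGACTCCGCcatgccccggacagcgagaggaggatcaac
Mafg (chr11:120633731-120633797, minus strand, 222 bases before the start): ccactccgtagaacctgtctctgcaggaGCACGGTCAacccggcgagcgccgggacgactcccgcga
Txnrd1 (chr10:82859084-82859152, plus strand, 92 bases before 1 of its 3 starts): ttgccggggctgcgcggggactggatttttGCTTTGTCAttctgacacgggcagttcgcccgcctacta
G6pdx (chrX:74428919-74428947, minus strand, 57 bases before the start): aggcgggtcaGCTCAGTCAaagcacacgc
Srxn1 (chr2:152105542-152105570, plus strand, 29 bases after the start): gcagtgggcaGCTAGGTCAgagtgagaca

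The libraries held 15329181 to 28998964 counts. AAV-GFP replicate 3 stood apart, its profile correlating at 0.838 on average with the rest, where the others reached 0.910 to 0.926. CPM here are library-size-normalised counts after trimmed-mean (TMM) scaling. The TMM factors were 0.989, 1.05 and 1.36 in AAV-GFP and 0.965, 0.904, 0.868 and 0.935 in AAV-GSTA4, in replicate order. Counts are divided by these factors, so the scaling raised every AAV-GSTA4 library relative to every AAV-GFP library. The human transgene hGSTA4 had 1 to 3 counts in AAV-GFP, whereas in AAV-GSTA4 it reached 222 CPM in replicate 1, 251 CPM in replicate 2, 2.64 CPM in replicate 3 and 43.7 CPM in replicate 4. Reads of d2EGFP did not separate the groups: AAV-GFP replicate 1 had 4.61 CPM, below the 8.58 CPM of AAV-GSTA4 replicate 1, while AAV-GFP replicates 2 and 3 had 153 and 113 CPM. All 14 RPE markers were detected in every library, although Best1, a chloride channel of the RPE, was at 1.15 to 3.32 CPM. The summed RPE markers ranged from 24071 to 72269 CPM in AAV-GFP and from 63282 to 113091 CPM in AAV-GSTA4, and the rod photoreceptor markers from 16362 to 43661 CPM and from 8824 to 15582 CPM. The rod difference gave p = 0.0286 in an exact two-sided permutation test, the smallest the design allows, and 0.193 after adjustment over the 9 marker lists. Because the rod sums did not overlap between the groups, a fit with the rod markers as a covariate can hardly separate rod level from group. AAV-GFP replicate 3 had the lowest RPE and the highest rod sum. AAV-GSTA4 replicate 2 had 51792 CPM on lens fibre markers, against 1573 to 12520 CPM in the other libraries. In bulk tissue, fewer cells of a type and less RNA per cell cannot be told apart.

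No gene of the NRF2 group differed between AAV-GSTA4 and AAV-GFP beyond the spread of the libraries. Of the 10 genes, 7 had higher and 3 lower fitted values in AAV-GSTA4, with log2 fold changes from -0.47 for Bach1 to 0.76 for Nqo1 and a median of 0.24. The median over all 15075 genes tested was -0.07, and 44.6% of them were above 0. The lean towards higher values depended on the setting: 4 were higher and 6 lower with library totals (median -0.064, all genes -0.37), in limma-voom (median -0.026) and with the summed RPE markers as a covariate (median -0.084), and 5 and 5 with the rod markers as a covariate (median -0.025). It was also 5 and 5 without AAV-GFP replicate 3 (median 0.058), and the median was 0.053 without AAV-GSTA4 replicate 2. With edgeR (quasi-likelihood F-test, p-values adjusted over all genes by Benjamini and Hochberg), 0 of the 10 passed an adjusted p of 0.05, as did 0% of all genes, and 0 of the 10 passed at an unadjusted p of 0.05, against 11.9% of all genes. The delivered transgene hGSTA4 was among the genes tested and did not pass the adjusted threshold in this fit either. The groups overlapped for all 10 genes and did not overlap for 12.0% of all genes, with AAV-GSTA4 above for 6.44% and below for 5.61%. DESeq2 also called 0 of the 10, against 1.34% of the genes to which it gave an adjusted p, and limma-voom called 0 of the 10 against 0% of all genes. The intervals given for each gene below show how large a difference these libraries leave possible; the widest is that of Hmox1, from -0.58 to 1.82 on the log2 scale.

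**Figure D1:**
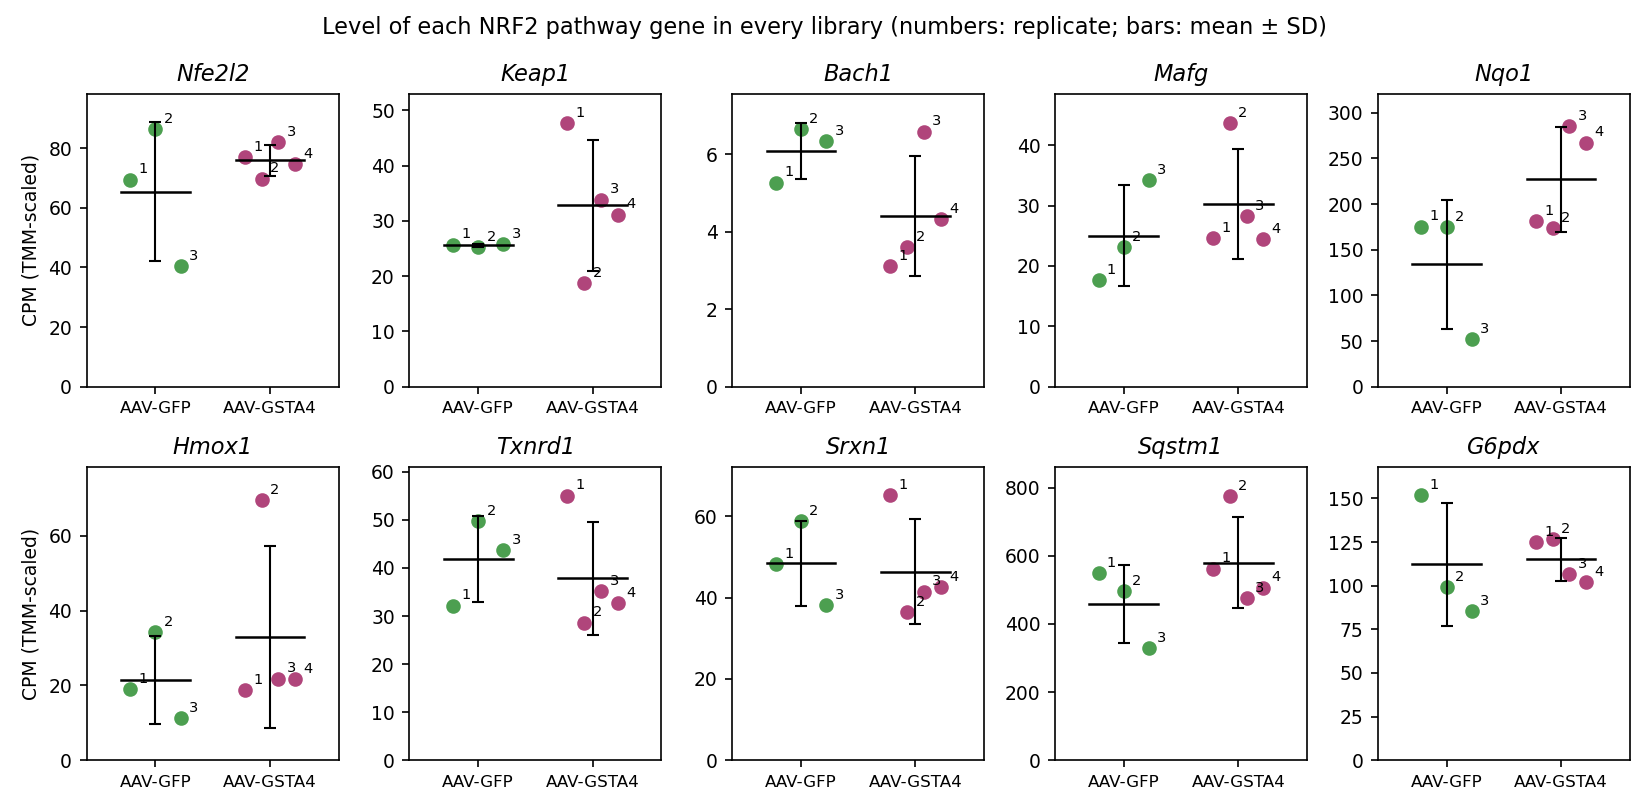
TMM-scaled CPM (linear axes from 0) of the 10 genes in the 3 AAV-GFP and 4 AAV-GSTA4 libraries; numbers beside the points are replicates, horizontal lines means and bars SD. The groups overlap in every panel, AAV-GFP replicate 3 is the lowest library for 5 genes, and AAV-GSTA4 replicate 2 is far above the others for Hmox1.

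Nfe2l2, which encodes NRF2 itself (chromosome 2, 75675513 to 75704641, minus strand, GENCODE M21 on GRCm38), was read 840 to 2236 times per library. Its levels were 69.4, 86.3 and 40.3 CPM in AAV-GFP replicates 1 to 3 and 76.99, 69.8, 82.2 and 74.7 CPM in the 4 AAV-GSTA4 replicates. The AAV-GSTA4 libraries lay close together, between the highest and the lowest AAV-GFP library. The means were 65.4 CPM ± 23.3 (SD, n = 3) and 75.9 CPM ± 5.15 (SD, n = 4). Its log2 fold change was 0.22 ± 0.26 (SE; 95% interval -0.37 to 0.80; edgeR adjusted p = 0.767). It was -0.04 without AAV-GFP replicate 3 and also -0.04 with library totals in place of TMM scaling.

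Keap1, the substrate adaptor that captures NRF2 for degradation (chromosome 9, 21229730 to 21239361, minus strand), was nearly constant in the control group after TMM scaling. It was at 25.7, 25.2 and 25.8 CPM in AAV-GFP and at 47.7, 18.7, 33.9 and 31.1 CPM in AAV-GSTA4. The control values thus lay inside a wide AAV-GSTA4 range, above replicate 2 and below the other 3 replicates. The groups differed by a log2 fold change of 0.36 ± 0.30 (SE; 95% interval -0.31 to 1.03; edgeR adjusted p = 0.649). Without AAV-GSTA4 replicate 2, the lowest library and the one with the lens signal, the groups did not overlap. The share of all genes without overlap was not counted in that fit. The log2 fold change was then 0.57, with an unadjusted p of 0.0473 and an adjusted p of 0.434 in edgeR. In that fit 11.4% of all genes were under an unadjusted p of 0.05. Without AAV-GSTA4 replicate 1, the highest library, the log2 fold change of Keap1 was 0.14. With library totals in place of TMM scaling the log2 fold change of Keap1 was 0.066. Its log2 CPM in AAV-GFP were then 4.67, 4.72 and 5.13, so the control group was less even. Keap1 shares 510 exonic bases, 10.9% of its exon length, with the antisense gene Gm16754; no strand setting is stated, so reads of the pair cannot be told apart.

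Bach1, the repressor that occupies antioxidant response elements until haem or oxidants displace it (chromosome 16, 87698945 to 87733346, plus strand), was the least abundant member, with 59 to 172 counts. It was at 5.27, 6.64 and 6.34 CPM in AAV-GFP and at 3.10, 3.60, 6.58 and 4.32 CPM in AAV-GSTA4. AAV-GSTA4 replicates 1, 2 and 4 lay below every AAV-GFP library, and replicate 3, the library with the least hGSTA4, lay among them. Counting error alone gave 95% Poisson intervals of 2.36 to 4.01 CPM for AAV-GSTA4 replicate 1 and 5.42 to 7.92 CPM for replicate 3. Between the groups its log2 fold change was -0.47 ± 0.40 (SE; 95% interval -1.36 to 0.42; edgeR adjusted p = 0.657), the largest negative value among the 10. It moved to -0.72 without AAV-GSTA4 replicate 3 and to -0.31 without replicate 1, and stayed below 0 in every alternative run.

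Mafg, a small MAF protein that pairs with NRF2 or BACH1 on DNA (chromosome 11, 120625117 to 120633600, minus strand), was at 17.7, 23.2 and 34.2 CPM in AAV-GFP. In AAV-GSTA4 it was at 24.6, 43.6, 28.3 and 24.5 CPM. Each group had 1 high library, AAV-GFP replicate 3 and AAV-GSTA4 replicate 2, the libraries with the highest rod and the highest lens markers. In the fit its log2 fold change was 0.27 ± 0.31 (SE; 95% interval -0.42 to 0.96; edgeR adjusted p = 0.748). Without AAV-GFP replicate 3 the groups did not overlap, and the share of all genes without overlap was not counted in that fit. The log2 fold change of Mafg was 0.57 there, 0.05 without AAV-GSTA4 replicate 2 and -0.09 with library totals. With the summed RPE markers as a covariate, an alternative chosen after seeing the data, it was 0.85. Its unadjusted p was 0.0174 and its adjusted p 0.489 in edgeR, in a fit where 9.42% of all genes were under an unadjusted 0.05. Mafg shares 124 exonic bases, 2.21% of its exon length, with Sirt7 on the same strand. The Sirt7 row held 319 to 869 counts against 380 to 909 for Mafg, and was highest in AAV-GFP replicate 3.

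Nqo1, the quinone reductase most often used to read NRF2 activity (chromosome 8, 107388225 to 107403206, minus strand), had the largest fitted difference of the 10. It was at 175, 175 and 51.9 CPM in AAV-GFP and at 181, 174, 286 and 267 CPM in AAV-GSTA4. AAV-GSTA4 replicates 1 and 2, which carried the most hGSTA4, were level with AAV-GFP replicates 1 and 2, while AAV-GSTA4 replicates 3 and 4 were above and AAV-GFP replicate 3 far below. The means were 134 CPM ± 71.1 (SD, n = 3) and 227 CPM ± 57.8 (SD, n = 4). The fitted log2 fold change was 0.76 ± 0.41 (SE; 95% interval -0.17 to 1.69; edgeR adjusted p = 0.485), and the unadjusted p was 0.0971 in edgeR and 0.0468 in limma-voom, where 21.8% of all genes were under 0.05. Without AAV-GFP replicate 3 it was 0.38.

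The level of Nqo1 ran beside the summed RPE markers. Relative to the mean of the 7 libraries, log2 CPM of Nqo1 was -1.70 in AAV-GFP replicate 3 and 0.76 and 0.67 in AAV-GSTA4 replicates 3 and 4, where the summed RPE markers were at -1.46, 0.77 and 0.49. In the other 4 libraries Nqo1 lay between 0.04 and 0.11 and the RPE sum between -0.20 and 0.33. That sum is carried by a few genes, above all Rgr, an opsin of the RPE, with 61493 of 113091 CPM in AAV-GSTA4 replicate 3. Of the 14 markers, 13 were lowest in AAV-GFP replicate 3 and 10 were highest in AAV-GSTA4 replicate 3, where Nqo1 was lowest and highest too. The pigment genes were mixed. In AAV-GSTA4 replicate 3 the melanosome protein gene Pmel was at 157 CPM, its lowest level, against 542 CPM in AAV-GFP replicate 1. Tyrp1 was at 318 CPM against 888 CPM in the same libraries, but was lowest in AAV-GFP replicate 3, at 195 CPM. Tyr had its lowest and highest levels where Nqo1 did, at 142 CPM in AAV-GFP replicate 3 and 853 CPM in AAV-GSTA4 replicate 3. Dct was lowest in AAV-GFP replicate 3, at 952 CPM, and highest in AAV-GFP replicate 2, at 2193 CPM. With the rod markers as a covariate the log2 fold change of Nqo1 was -0.12 (edgeR adjusted p = 0.952). With the RPE markers as a covariate, an alternative chosen after seeing the data, it was -0.09 (edgeR adjusted p = 0.913). The rod sums did not overlap between the groups, so the rod fit can hardly separate rod level from group. The part of cell composition in the Nqo1 value was not tested.

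Hmox1, haem oxygenase 1, which degrades haem and is repressed by BACH1 (chromosome 8, 75093621 to 75100589, plus strand), varied most. It was at 18.9, 34.3 and 11.1 CPM in AAV-GFP and at 18.7, 69.5, 21.8 and 21.7 CPM in AAV-GSTA4. A single library, AAV-GSTA4 replicate 2, was high, and the other 3 lay within the AAV-GFP range. Its log2 fold change was 0.62 ± 0.53 (SE; 95% interval -0.58 to 1.82; edgeR adjusted p = 0.664), and without AAV-GSTA4 replicate 2 it was -0.04. That library also had the most lens fibre signal, including Mip, a lens water channel, at 465 CPM against 2.06 to 23.1 CPM elsewhere, and the part of the lens signal in the Hmox1 value was not tested. Its macrophage and microglia markers summed to 2199 CPM, of which Lyz2 gave 1519 CPM, against 1158 to 3553 CPM in the other libraries. Its erythroid markers summed to 423 CPM, the lowest of all libraries, against 436 to 2470 CPM elsewhere. The part of such cells or of blood in the Hmox1 value was not tested.

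Txnrd1, the cytosolic thioredoxin reductase (chromosome 10, 82833951 to 82897712, plus strand), was at 32.2, 49.8 and 43.7 CPM in AAV-GFP and at 55.0, 28.6, 35.2 and 32.6 CPM in AAV-GSTA4. The AAV-GSTA4 group held both its highest library, replicate 1, and its lowest, replicate 2. The groups differed by a log2 fold change of -0.15 ± 0.28 (SE; 95% interval -0.76 to 0.47; edgeR adjusted p = 0.859). Srxn1, sulfiredoxin, which repairs over-oxidised peroxiredoxins (chromosome 2, 152105516 to 152111376, plus strand), was at 48.2, 58.9 and 38.1 CPM in AAV-GFP and at 65.2, 36.4, 41.5 and 42.5 CPM in AAV-GSTA4. As for Txnrd1, replicates 1 and 2 of AAV-GSTA4 were the highest and lowest libraries and enclosed the control group. The log2 fold change of Srxn1 was -0.06 ± 0.26 (SE; 95% interval -0.64 to 0.52; edgeR adjusted p = 0.947).

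Sqstm1 encodes p62, an autophagy adaptor that also binds KEAP1 and thereby frees NRF2 (chromosome 11, 50199366 to 50210827, minus strand). It was at 549, 497 and 330 CPM in AAV-GFP and at 563, 775, 476 and 507 CPM in AAV-GSTA4. AAV-GSTA4 replicates 1, 3 and 4 were close to AAV-GFP replicates 1 and 2, replicate 2 was high, and AAV-GFP replicate 3 was low. Between the groups its log2 fold change was 0.34 ± 0.29 (SE; 95% interval -0.31 to 0.98; edgeR adjusted p = 0.656), and it was 0.15 without AAV-GFP replicate 3, 0.18 without AAV-GSTA4 replicate 2 and 0.02 with the rod covariate. Sqstm1 shares 580 exonic bases with Mrnip on the other strand, whose row held 80 to 160 counts against 6869 to 16147 for Sqstm1.

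G6pdx, the enzyme that feeds glucose into the NADPH-producing pentose phosphate pathway (chromosome X, 74409483 to 74429194, minus strand), was the steadiest member. It was at 152, 99.1 and 85.6 CPM in AAV-GFP and at 125, 127, 107 and 102 CPM in AAV-GSTA4. All 4 AAV-GSTA4 libraries lay inside the AAV-GFP range. In the fit its log2 fold change was 0.04 ± 0.24 (SE; 95% interval -0.51 to 0.58; edgeR adjusted p = 0.969), and its sign turned in 6 of the alternatives. G6pdx overlaps Ikbkg on the other strand over 418 exonic bases, 13.6% of its exon length; the Ikbkg row held 1161 to 2005 counts against 1782 to 3258 for G6pdx, and without a stated strand setting reads of the shared bases cannot be told apart. Its near-identical autosomal copy G6pd2 was listed with 2 to 11 counts under a multi-mapping rule that is not stated.

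**Figure D2:**
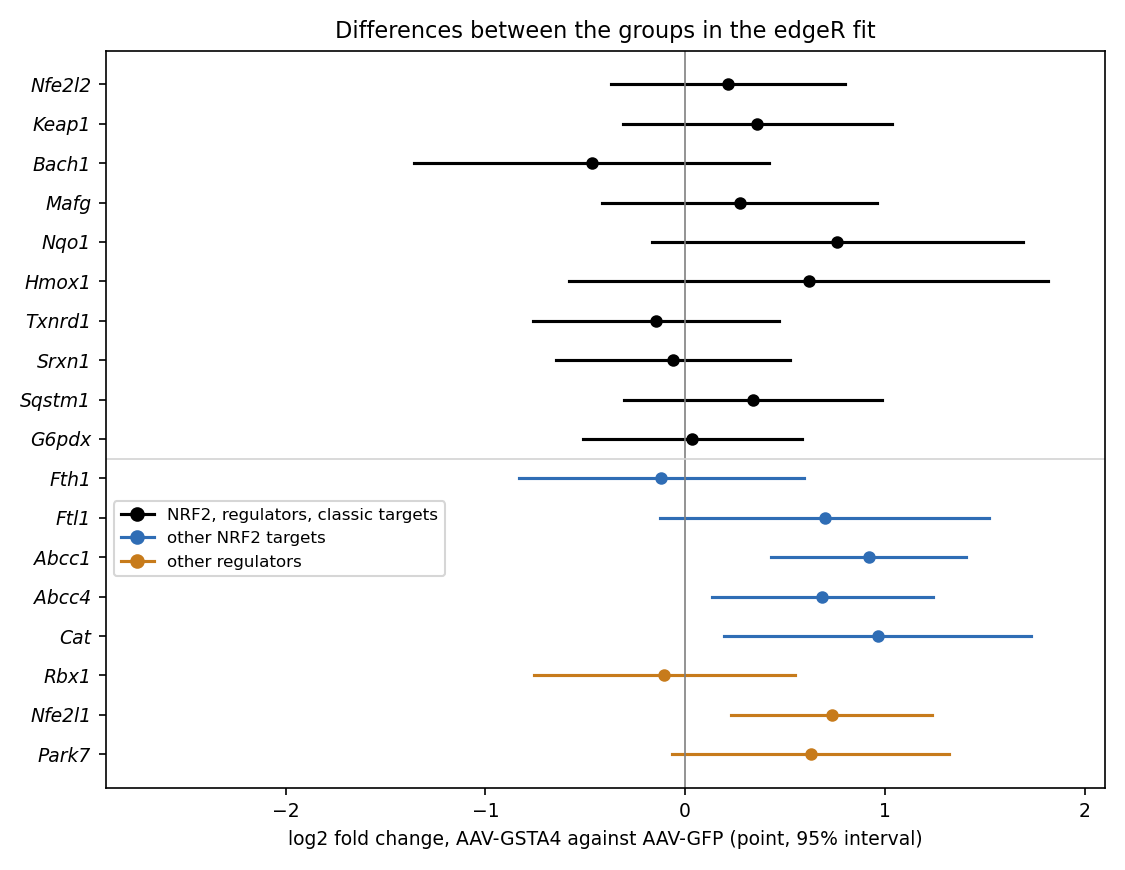
Difference between the groups as a log2 fold change, positive where AAV-GSTA4 was higher, in the edgeR fit (points) with 95% intervals (lines) for the 10 genes (black), the named other NRF2 targets (blue) and the named other regulators (orange). The intervals of all 10 genes in black include 0, from -0.47 for Bach1 to 0.76 for Nqo1, and those of Abcc1, Abcc4, Cat and Nfe2l1 lie above 0 before any adjustment.

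Per length of exons (CPM per kilobase, GENCODE M21), the order of levels was much the same in every library. Sqstm1, at 137 CPM per kb ± 34.1 (SD, n = 3) in the GFP group and 173 ± 40.1 (SD, n = 4) in the GSTA4 group, and Nqo1, at 86.2 ± 45.8 and 146 ± 37.2, took the first 2 places in all 7 libraries. They exchanged places in AAV-GSTA4 replicates 3 and 4, so these neighbours did not differ beyond their spread. G6pdx was at place 3 in every library, at 36.4 ± 11.4 and 37.4 ± 4.05 CPM per kb. Nfe2l2 followed at 17.2 ± 6.13 and 19.99 ± 1.36, Srxn1 at 17.2 ± 3.69 and 16.5 ± 4.54, and Hmox1 at 12.2 ± 6.72 and 18.8 ± 13.95 CPM per kb, with overlapping ranges. Keap1, Txnrd1 and Mafg lay between 3.16 and 10.2 CPM per kb in all libraries and changed places among themselves. Bach1 was last in every library, at 0.984 ± 0.117 and 0.712 ± 0.249 CPM per kb. The repressor's RNA was thus the scarcest of the group and that of p62 and of Nqo1 the most abundant.

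Among libraries, the 10 genes did not move as a block. After TMM scaling AAV-GFP replicate 3 was the lowest library for Nfe2l2, Nqo1, Hmox1, Sqstm1 and G6pdx, while Bach1, Mafg and Txnrd1 were above their means there. With library totals Sqstm1 and G6pdx were instead lowest in AAV-GSTA4 replicate 3, at log2 CPM of 8.69 and 6.53. In AAV-GFP replicate 3 these were 8.81 and 6.86. In AAV-GSTA4 replicates 1 and 2, the libraries with the most hGSTA4, 5 of the 10 genes lay on the same side of their mean and 5 on opposite sides. Keap1, Txnrd1 and Srxn1 were highest in replicate 1 and lowest in replicate 2, Mafg and Hmox1 were below their means in replicate 1 and highest in replicate 2, and Bach1 was below its mean in both. Relative to its log2 mean, Keap1 was at 0.73 in replicate 1 and -0.61 in replicate 2, and Hmox1 at -0.35 and 1.54. The SD of log2 CPM within groups was 0.30 for G6pdx and 0.85 for Hmox1, at percentiles 21.2 and 77.3 of all genes tested, whose median was 0.50. Nqo1 was at percentile 68.8, and the other 7 genes lay between percentiles 28.7 and 41.3.

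**Figure D3:**
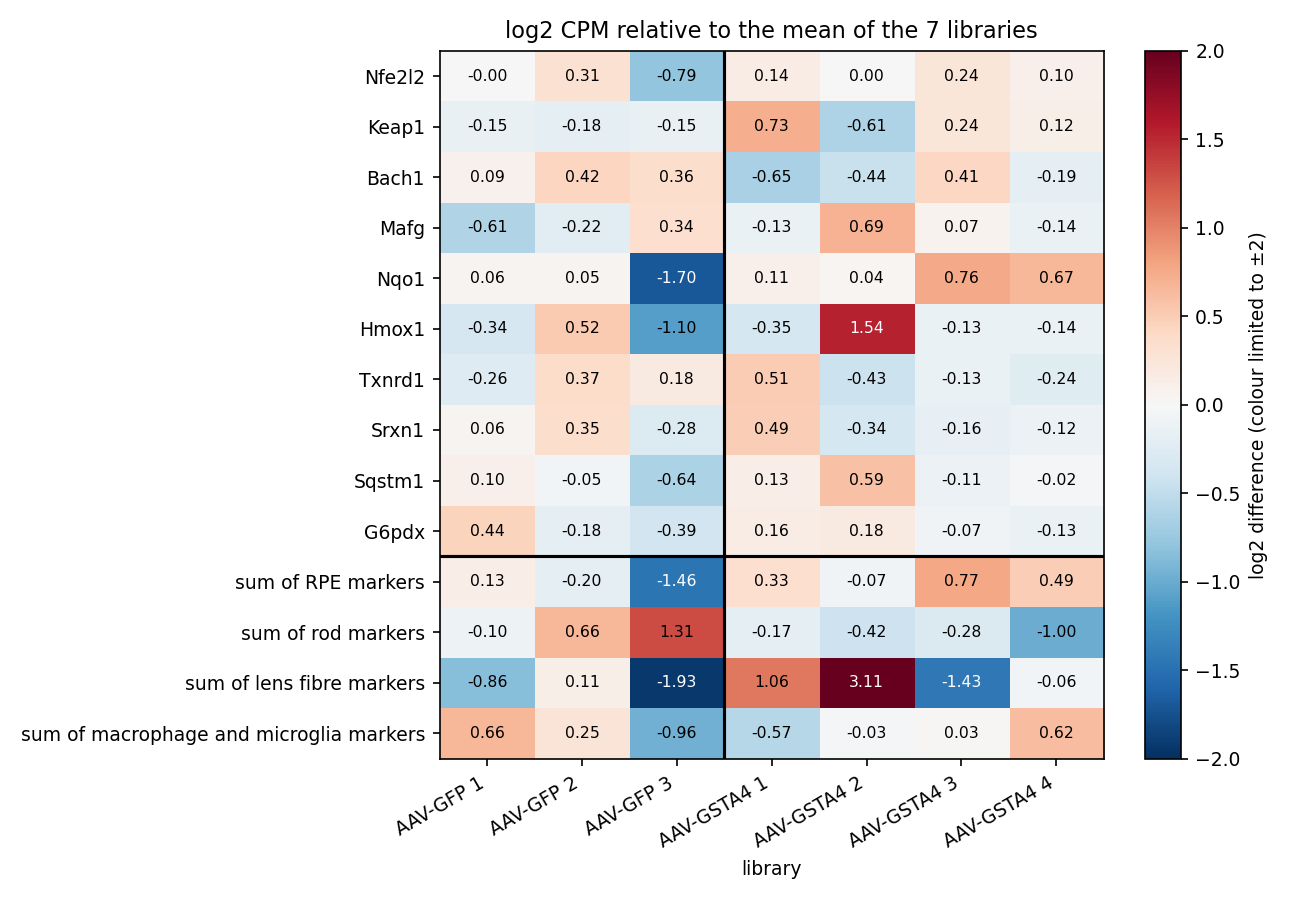
Log2 CPM of the 10 genes (upper rows) and log2 summed CPM of 4 marker lists (lower rows), each relative to its mean over the 7 libraries (columns); red is above and blue below the mean, with colours limited to ±2. AAV-GFP replicate 3 is low for Nqo1 (-1.70) and the RPE markers (-1.46), and AAV-GSTA4 replicate 2 is high for Hmox1 (1.54) and the lens fibre markers (3.11).

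Counts on Y-linked genes were present in AAV-GFP replicate 1 and AAV-GSTA4 replicates 3 and 4 (307 to 465 CPM) and at most 2.83 CPM elsewhere, and the labels used here give no sex. Within the 3 libraries with such counts, the X-linked gene G6pdx differed by -0.54 on the log2 scale between AAV-GSTA4 and AAV-GFP, and within the other 4 by 0.45. Sqstm1 differed by -0.16 and 0.71 and Bach1 by 0.02 and -0.94 in the same classes. Nqo1 differed by 0.66 and 0.90, and Keap1 by 0.33 and 0.23, in the same direction in both. Each class holds 1 or 2 libraries per group, so these are values without a test. With the Y-linked level as a covariate in the fit of all genes, 0 of the 10 genes passed an unadjusted p of 0.05 in edgeR.

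The wider set of NRF2 targets was described with a list of 34 genes, of which 33 were tested and Gstm3, with 0 to 3 counts, was not. Of the 33, 19 had higher and 14 lower fitted values, with a median log2 fold change of 0.17 against -0.07 for all genes. This median fell below that of all genes with the rod covariate (-0.034 against 0.018) and the RPE covariate (-0.059 against 0.010), and it was 0.371 without AAV-GFP replicate 2, 0.043 without AAV-GFP replicate 3 and 0.062 without AAV-GSTA4 replicate 2. None passed the adjusted threshold in edgeR; 3 genes (9.09%) had an unadjusted p under 0.05, all higher in AAV-GSTA4, against 5.27% of all genes in that direction and 6.63% in the other. These were the efflux pumps Abcc1 and Abcc4 and catalase (Cat), which removes hydrogen peroxide. After TMM scaling the groups did not overlap for 5 of the 33 (15.2%, against 12.0% of all genes). All 5 had AAV-GSTA4 above, as had 6.44% of all genes. Among them were Prdx6, a peroxiredoxin, and Ephx1, microsomal epoxide hydrolase, which were named after their values were seen. Overlap with library totals was not counted for this list.

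Abcc1, which exports glutathione conjugates, was at 72.3, 63.3 and 68.9 CPM in AAV-GFP and at 122, 102, 160 and 131 CPM in AAV-GSTA4. After TMM scaling every AAV-GSTA4 library was well above a tight control group. The fitted log2 fold change was 0.92 ± 0.22 (SE; 95% interval 0.43 to 1.41; unadjusted p = 0.00193 and adjusted p = 0.363 in edgeR). DESeq2 called it (log2 difference 0.94; adjusted p = 0.0141), while over the other alternatives the adjusted p ranged from 0.0589 in limma-voom to 0.865. Abcc1 was 0.88 with the rod covariate and 0.77 with the RPE covariate, both at an unadjusted p under 0.05 in edgeR. With library totals in place of TMM scaling it was 0.61, at an unadjusted p of 0.0190 in edgeR. In that fit 15.9% of all genes were under 0.05.

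Cat was at 446, 382 and 193 CPM in AAV-GFP and at 757, 475, 805 and 619 CPM in AAV-GSTA4. After TMM scaling the lowest AAV-GSTA4 library exceeded the highest control by little. Its log2 fold change was 0.96 ± 0.34 (SE; edgeR adjusted p = 0.373), but 0.53 with the rod covariate and 0.33 with the RPE covariate, where the unadjusted p was 0.264 and 0.151 in edgeR. Abcc4, an exporter of the same family, was at 34.8, 35.8 and 21.4 CPM and at 57.2, 40.3, 51.8 and 48.1 CPM, with a log2 fold change of 0.69 ± 0.25 (SE; edgeR adjusted p = 0.373), and 0.42 and 0.30 with the rod and RPE covariates, where the unadjusted p was 0.263 and 0.241 in edgeR. The ferritin chains Fth1 and Ftl1, which store iron and have many processed copies in the genome, were the most abundant of the list and had log2 fold changes of -0.12 ± 0.32 and 0.70 ± 0.37 (SE), with edgeR adjusted p-values of 0.907 and 0.474. Ftl1 was highest in AAV-GSTA4 replicate 2, at 3389 CPM against 913 to 2120 CPM in the other libraries, the same library in which Hmox1 was high. The log2 fold change of Ftl1 was 0.44 without that library, 0.30 with the rod covariate and 0.37 in limma-voom.

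**Figure D4:**
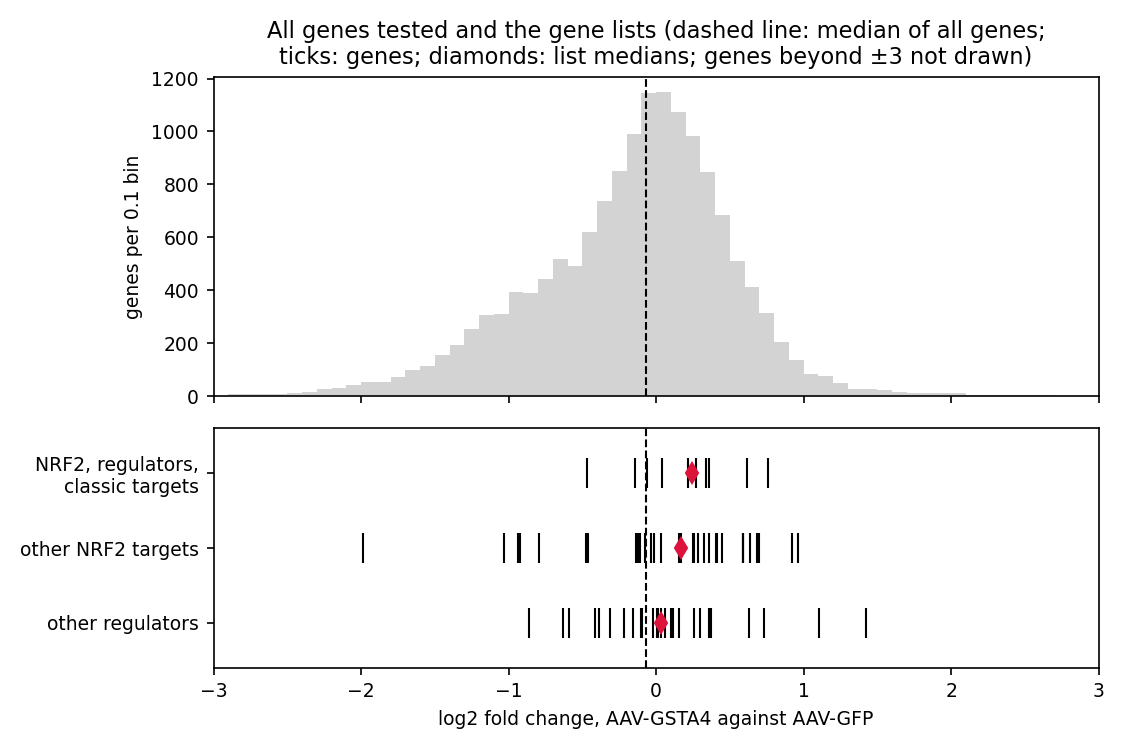
Upper panel, number of genes per 0.1 bin of log2 fold change (AAV-GSTA4 against AAV-GFP) for all 15075 genes tested, of which 41 beyond ±3 are not drawn. Lower panel, each gene of the 3 lists as a tick and each list's median as a diamond, at 0.24, 0.17 and 0.03 from top to bottom; the dashed line is the median of all genes, -0.07.

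Of 28 other regulators of NRF2, 27 were tested and Maff, with 0 to 19 counts, was not. Fitted values were higher for 16 and lower for 11, and their median log2 fold change was 0.03. None passed the adjusted threshold in edgeR, and 1 gene (3.70%) had an unadjusted p under 0.05, against 11.9% of all genes. It was Nfe2l1, a transcription factor related to NRF2 that binds the same elements and is best known for proteasome genes. Nfe2l1 was at 147, 101 and 126 CPM in AAV-GFP and at 241, 183, 204 and 202 CPM in AAV-GSTA4. After TMM scaling the groups did not overlap for Nfe2l1, nor for Palb2, a KEAP1-binding DNA repair protein. Palb2 was lower in AAV-GSTA4 and was named after its values were seen. Nfe2l1 and Palb2 are 2 of 27 (7.41%), against 12.0% of all genes. Overlap with library totals was not counted for this list either. For Nfe2l1 the log2 fold change was 0.73 ± 0.22 (SE; 95% interval 0.23 to 1.24; unadjusted p = 0.00892 and adjusted p = 0.363 in edgeR). It was 0.65 with the rod covariate (unadjusted p = 0.0657 in edgeR), 0.68 with the RPE covariate (0.0238), 0.44 with library totals (0.0816) and 0.61 without AAV-GFP replicate 2 (0.0515), so that the unadjusted threshold was missed in all of these but the RPE fit. The adjusted p over all alternatives ranged from 0.0552 in DESeq2 to 0.865. Park7 (DJ-1), which stabilises NRF2, and Rbx1, the RING subunit of the KEAP1 ligase, were the most abundant of the list and had log2 fold changes of 0.63 ± 0.31 and -0.10 ± 0.29 (SE), with edgeR adjusted p-values of 0.450 and 0.913. Park7 was at 0.21 with the rod covariate and at 0.41 without AAV-GFP replicate 3. Whether Nfe2l1 and Nfe2l2 differed from each other in response was not tested.

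The genes whose pattern over the 7 libraries was most like that of 3 members were found by the root mean square difference of centred log2 CPM among 9461 genes. For Nfe2l2 they were Fibp (0.05), Tpmt (0.07) and Ndufb2 (0.08). For Nqo1 they were Ins2 (0.07), Cst3 (0.09) and Ctsc (0.10), which encode insulin 2, cystatin C and cathepsin C. For Hmox1 the nearest genes were farther away: Dapl1 at 0.20, Gstm1, a glutathione transferase with close paralogs, at 0.25 and Rps3 at 0.26. The patterns share the same libraries and the same scaling.

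**Figure D5:**
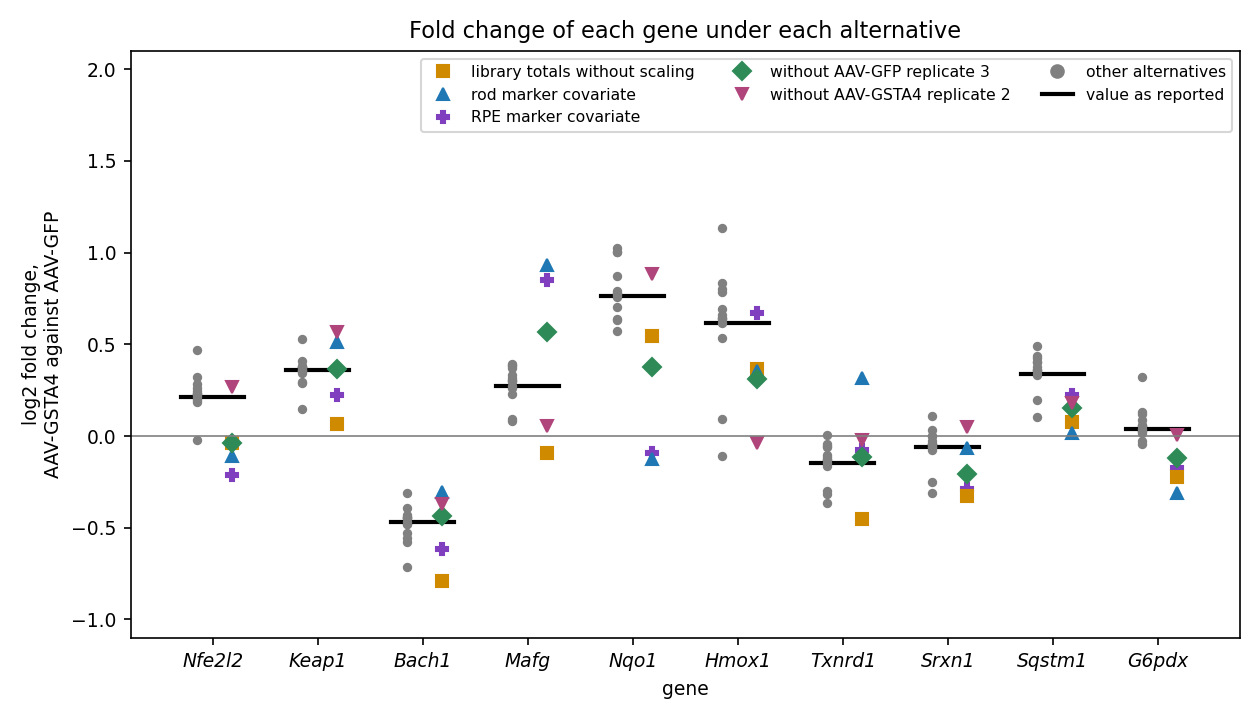
Log2 fold change (positive where AAV-GSTA4 was higher) for each of the 10 genes as reported (black lines) and under each alternative (grey points, with 5 alternatives drawn as coloured symbols). Nqo1 falls from 0.76 to -0.12 with the rod covariate and to -0.09 with the RPE covariate, Hmox1 to -0.04 without AAV-GSTA4 replicate 2, and Bach1 stays below 0 throughout.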

How the data were processed

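The authors deposited raw read counts per gene symbol in 1 table with a column per library. STAR 2.7.1a and featureCounts 1.6.2, and mouse (GRCm38, mm10) and human builds, are listed in the submitters' processing notes; annotation release, strand and multi-mapping rules are not given in the sources used here. Full-length cDNA was made with a low-input kit and cut with a transposase, per the labels' protocols, which name no molecular identifiers, so counting intervals cover counting error only. Columns were matched by library name, where AAV-GFP replicates 1 to 3 are numbered 1, 3 and 4. Of symbols on several rows (24, with 26 extra rows), the highest row kept the name.

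Counts were tested with edgeR 4.0.16 (R 4.3.3): quasi-likelihood F-test, 7 libraries, group as the only factor, TMM scaling, default filter, robust estimation, threshold 0.05 after Benjamini-Hochberg adjustment over 15075 genes. SE is the fold change divided by the root of F. Log2 CPM used a prior count of 2. The script was tested on simulated data. Alternatives, given in the closing section, used other scalings, filters, covariates and blocks, DESeq2 1.42.0, limma-voom (limma 3.58.1) and each library left out. Named were all 10 members, list genes with an unadjusted p under 0.05 and the 2 most abundant of each list. Members and lists were chosen with earlier results of these data known. Exon lengths and coordinates are from GENCODE M21, and promoter sequences from RefSeq GRCm38.p6.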

Additional observations from a re-analysis of the deposited data

Results flagged for a closer look

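Hmox1 had an isolated library among the 4 of AAV-GSTA4. Replicate 2 was at 69.5 CPM and the other 3 at 18.7 to 21.8 CPM, so that the gap on the log2 scale was 0.885 of the group's range, above Dixon's 95% critical value for 4 samples. It was 1 of 18 genes examined this way, where chance gives about 5% of groups. The same library had the most lens fibre signal, whose part in the value was not tested.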

How the results depend on the processing

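None of the 10 genes passed the adjusted threshold in any of the 19 alternatives run. Over all genes, 172 passed in DESeq2, 1 with the rod covariate (Cyp2f2) and 0 to 1 when a library was left out (hGSTA4 without AAV-GSTA4 replicate 3). Among the 10, limma-voom put 1 gene under an unadjusted p of 0.05 (Nqo1), against 21.8% of all genes. The RPE covariate, added after seeing the data, put 1 there (Mafg), against 9.42% of all genes. Leaving out a library put 0 to 1 there (Keap1 without AAV-GSTA4 replicate 2, against 11.4% of all genes). Groups ceased to overlap for 1 gene (Nqo1) with median-of-ratios scaling and with at least 10 counts in every library. They also did so for 1 to 2 genes when a library was left out. The share of all genes without overlap was not counted in these fits, and fewer libraries separate more readily by chance. These counts therefore cannot be read as a result about the 10 genes. Of the other targets, those under an unadjusted p of 0.05 numbered 5 in DESeq2 (14.7%, against 11.7% of all genes in that fit), 6 in limma-voom (18.2%, against 21.8%), 5 with the rod covariate (15.2%, against 9.48%), 6 with the RPE covariate (18.2%, against 9.42%) and 3 to 5 without 1 library; only Abcc1 was higher in either covariate fit. Of the other regulators they numbered 3 (10.7%), 5 (18.5%), 2 (7.41%), 3 (11.1%) and 1 to 4 in the same order. Without 1 library the share of all genes under that threshold was 6.88% to 12.7%. The 5 targets (15.2%) and 4 regulators (14.3%) came without AAV-GFP replicate 3, against 12.5% of all genes. Library totals shifted the median difference over all genes from -0.07 to -0.37 (log2), of the other targets to -0.054 and of the other regulators to -0.28.

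Whether equal replicate numbers pair the libraries is not stated. With each gene's group mean subtracted, same-numbered libraries correlated at -0.089, 3.3e-05 and 0.0090 by title and at -0.089, 0.015 and -0.13 by library name. These values cannot settle pairing, because the libraries are few and AAV-GFP replicate 3 stood apart. With the replicate block, 1 gene passed under either numbering (hGSTA4), 0 of the 10 had an unadjusted p under 0.05, and 5 other targets did by library name (15.2%, against 7.62% of all genes). Of these 5, Abcc1, Cat and Abcc4 were higher and Aldh3a1 and Ptgr1 lower in AAV-GSTA4. By title 4 other targets did (12.1%, against 5.63% of all genes), with Abcc1 higher and Aldh3a1, Gsta3 and Ptgr1 lower. The median of the 10 was 0.093 in the block by library name, with Srxn1 at 0.031 and Rbx1 at 0.013. In the block by title the unadjusted p of Nfe2l1 was 0.0605 in edgeR.

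Log2 fold changes that turned sign were G6pdx (-0.22 with library totals, -0.029 in limma-voom, -0.31 with rod and -0.17 with RPE covariates), Nfe2l2 (-0.036, -0.023, -0.11 and -0.21 in the same order), Nqo1 (-0.12 and -0.094 with rod and RPE covariates), Hmox1 (-0.11 in limma-voom), Mafg (-0.092 with library totals) and Txnrd1 (0.31 with the rod covariate). Without 1 library, G6pdx ranged from -0.12 to 0.32, Nfe2l2 from -0.038 to 0.47, Hmox1 from -0.039 to 1.13, Srxn1 from -0.25 to 0.11, Txnrd1 from -0.36 to 0.0030, Fth1 from -0.34 to 0.11 and Rbx1 from -0.36 to 0.056. The causes were not tested. On the log2 scale the summed macrophage markers differed by 0.027, by -0.26 with library totals and by -0.45 to 0.36 without 1 library, the endothelial markers by -0.55 and by -1.01 to 0.057, and the fibroblast markers by -0.19 and by -0.89 to 0.32.

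Bach1, with 59 to 172 counts, is the gene whose counting error is widest. With 3 libraries against 4 and a biological coefficient of variation of 48.2%, a p above the threshold does not show that a gene is unaltered.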
